A study of Oryza sativa with 6 samples.

Results

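The list of H3K27ac peaks from rice leaves held 9309 peaks, of 82347 in the lists of all 6 histone marks profiled in the study, and every peak of that list was described here by where it lay on the 12 chromosomes, how far it was from its neighbours and how wide it was. The chromatin came from leaves (the tissue field reads Seedling) of Nipponbare, a japonica rice cultivar, grown in a greenhouse for 2 weeks and sampled without any treatment. H3K27ac was precipitated with the antibody ab4729 from abcam, and the other 5 lists (H3K9ac, H3K4ac, H3K27me3, H3K9me1 and H3K9me3) came from the same kind of material. Each mark had 1 library, so no value below has a replicate check, and no test between conditions was possible.

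Acetylation of lysine 27 of histone H3 is laid down by acetyltransferases of the CBP/p300 family, known as HAC proteins in plants. It is found around the starts of transcribed genes and, in animals, at active enhancers. The same lysine can instead be methylated by Polycomb proteins to give H3K27me3, so a single histone tail carries either mark and not both. Rice chromosomes are rich in genes towards their ends and rich in repeats around the centromeres, and the short arms of chromosomes 4 and 10 are known for their heterochromatin.

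The list was first checked against its label, by overlaps that cannot tell H3K27ac from another acetylation. H3K9ac peaks overlapped 95.6% of the H3K27ac peaks (95% Wilson interval 95.2 to 96.0%) and H3K4ac peaks overlapped 94.9%, whereas H3K27me3 peaks overlapped 8.21%. A set of 44 H3K27ac peaks overlapped peaks of all 5 other marks, and the results were also computed without them. The number of reads behind the list is unknown, so its length reflects the depth of the library as well as the mark. In bulk leaf chromatin, acetylation in few cells and weak acetylation in many cannot be told apart. Intervals here cover counting error only, and peaks are not replicates.

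H3K27ac peaks covered 10.5 Mb of the 373 Mb spanned by the peaks of all 6 lists, which is 2.82%, at 24.9 peaks per Mb (95% Poisson interval 24.4 to 25.5). Chromosomes 3, 1 and 2 carried the most per Mb. Chromosome 3 had 1116 peaks at 30.7 per Mb (28.9 to 32.5), chromosome 1 had 1239 at 28.6 (27.1 to 30.3) and chromosome 2 had 992 at 27.6 (25.9 to 29.4). These 3 intervals overlapped one another, and those of chromosomes 3 and 1 lay above the intervals of the other 9 chromosomes. Chromosomes 5, 7 and 8 followed with 24.8, 24.02 and 24.02 peaks per Mb, and chromosomes 6, 9 and 4 with 23.6, 23.4 and 22.5. The lowest densities were 22.3 on chromosome 12, 21.8 on chromosome 10 and 21.6 (19.9 to 23.4) on chromosome 11. From chromosome 5 down to chromosome 11 each neighbour in this order lay within the interval of the next. The fold between chromosomes 3 and 11 was 1.42 in peaks and 1.62 in covered bp, since 3.63% of chromosome 3 but 2.24% of chromosome 11 was covered. The median width was 1031.5 bp on chromosome 3, the highest of the 12, and 935 bp on chromosome 11, the lowest, but the chromosomes between them did not keep this order, as chromosome 9 with 23.4 peaks per Mb had a median of 1011 bp and chromosome 2 with 27.6 had 1000.5 bp. Their scores did not follow that order, with medians of 82.7 and 80.3 on these chromosomes and 88.2 on chromosome 6, the highest of the 12.

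**Figure D1:**
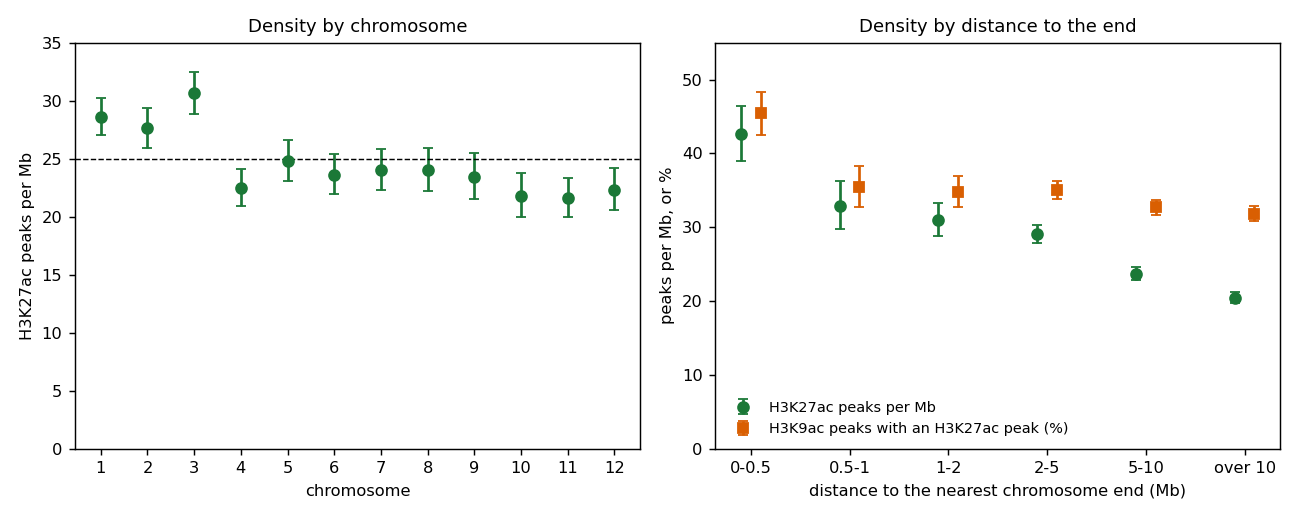
Left, H3K27ac peaks per Mb (y axis) on each chromosome (x axis) with 95% Poisson intervals, and the density over all chromosomes as a dashed line at 24.9. Right, by distance to the nearest chromosome end in Mb, H3K27ac peaks per Mb with Poisson intervals (circles) and the percentage of H3K9ac peaks that overlap an H3K27ac peak with Wilson intervals (squares). Both fall most between the outer 0.5 Mb and the next 0.5 Mb.

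Within a chromosome the density varied more than between chromosomes. Each chromosome was divided into bins of 500 kb, 746 in all, which held 9268 of the peaks. The median bin held 12 peaks (11 to 13), the middle 50% of bins held 9 to 16, and the range was 1 to 33. No bin was empty. The limit that 3 counts of 746 set on the share of empty bins is 0.402%, and the upper Wilson limit is 0.512%. Fewer than 5 peaks lay in 38 bins and at least 20 in 70. The covered length per bin had a median of 12.7 kb, or 2.55% of the bin, and ranged from 0.713 to 58.7 kb. The densest 10% of bins held 17.9% of the binned peaks and 20.5% of the covered length. Peak number and covered length ranked the bins nearly alike (Spearman's rho 0.956 over the 746 bins, which share both measures' peaks).

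The fullest bin was the first 500 kb of chromosome 1, with 33 peaks (95% Poisson interval 22.7 to 46.3) covering 45.6 kb. It was followed by 35 to 35.5 Mb on chromosome 2 with 31 peaks, the first bin of chromosome 6 with 28, and 33.5 to 34 Mb on chromosome 1 and 34.5 to 35 Mb on chromosome 3 with 27 each. The intervals of these 5 bins overlapped, so their order is not resolved at this number of peaks. A single peak lay in each of the bins at 2 to 2.5 and 3 to 3.5 Mb of chromosome 4 and in the bin at 13 to 13.5 Mb of chromosome 8. H3K9ac was sparse but not absent in these 3 bins, with 10, 9 and 9 peaks.

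**Figure D2:**
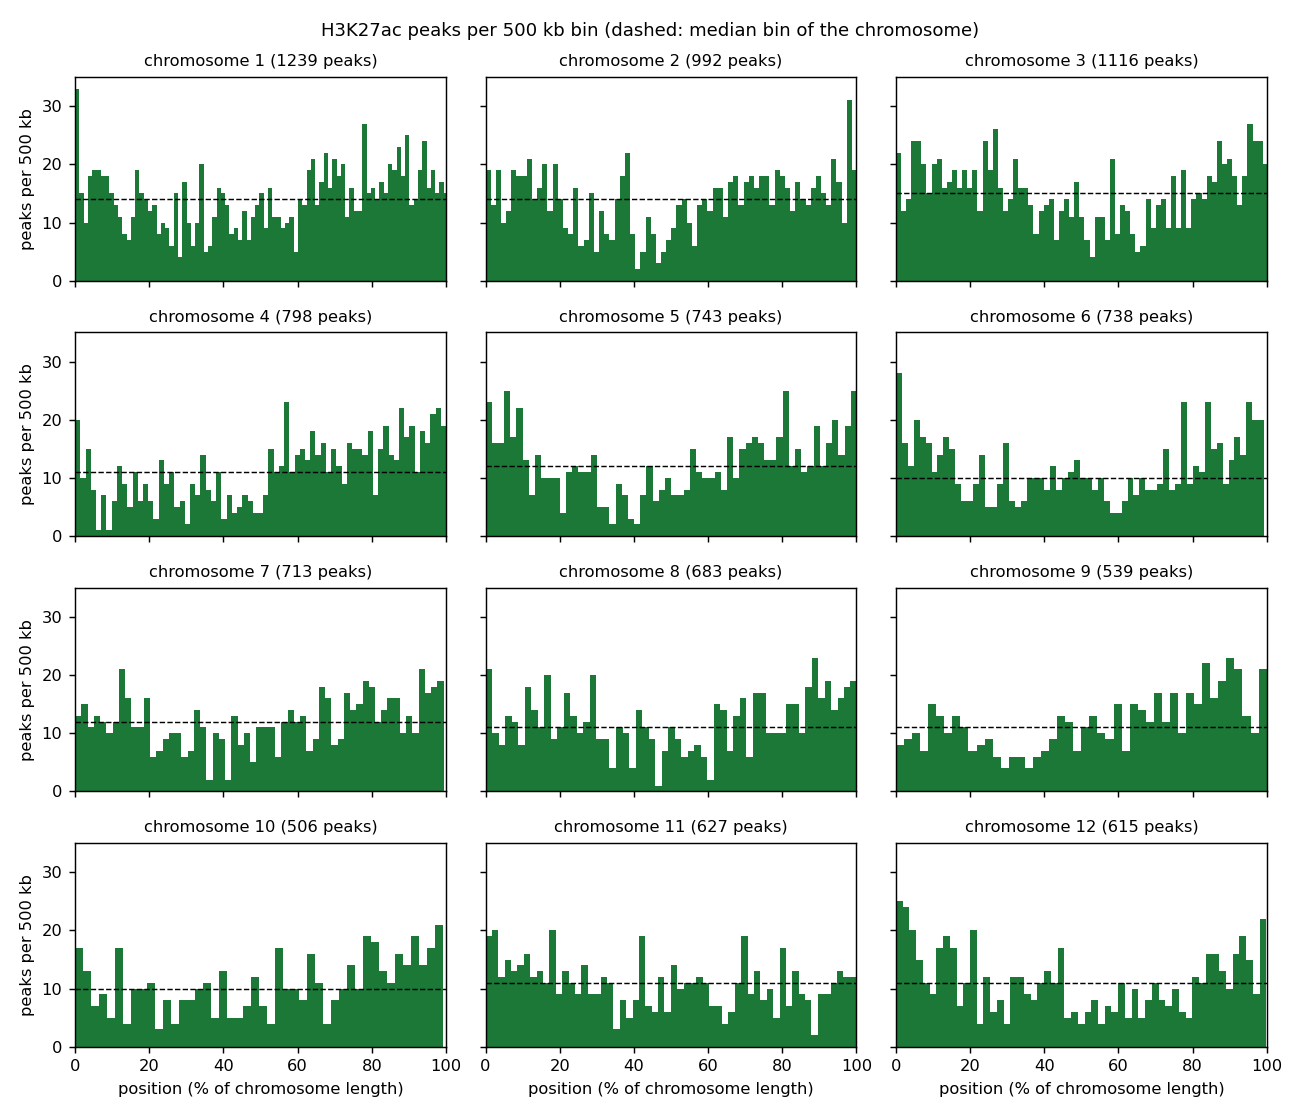
Number of H3K27ac peaks (y axis) in each 500 kb bin along the 12 chromosomes (x axis, position as a percentage of the chromosome's length). Dashed lines mark the median bin of each chromosome, a last piece shorter than 250 kb is left out, and titles give all peaks of the chromosome. Low stretches lie mostly inside the chromosomes and high ones mostly near their ends, but chromosome 9 starts with low bins. On chromosome 4 most bins before the midpoint are low.

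Neighbouring bins resembled each other over several Mb. Across pairs of bins on the same chromosome, the rank correlation of peak numbers was 0.470 at a distance of 0.5 Mb (734 pairs), 0.413 at 2 Mb, 0.355 at 3 Mb, 0.218 at 5 Mb and -0.068 at 10 Mb. These pairs share bins with one another and are given as a description. The variance of the bin counts was 2.23 times their mean, where peaks placed independently and evenly would give 1. This ratio depended on the scale. It was 0.914 in bins of 5 kb and 0.910 in bins of 10 kb, below 1, passed 1 between bins of 20 kb (0.970) and 50 kb (1.09), and reached 3.13 in bins of 1 Mb and 5.03 in bins of 2 Mb. Peaks that cannot overlap give a ratio somewhat below 1 even when evenly placed. How much of the values under 1 in small bins comes from this was not tested, and they are not read as regular spacing.

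The sparsest stretches were internal at the scale of several Mb. In windows of 3 Mb, the fewest H3K27ac peaks were 28 (9.33 per Mb, 6.20 to 13.5) at 9.5 to 12.5 Mb of chromosome 5. Chromosome 4 had 30 at 15 to 18 Mb, chromosome 9 had 32 at 6 to 9 Mb, chromosome 12 had 33 at 12.5 to 15.5 Mb and chromosome 2 had 34 at 14.5 to 17.5 Mb. The densest window ran from 33.5 Mb to the end of chromosome 3 at 36.4 Mb, with 126 peaks. Its density of 42.0 per Mb (34.99 to 50.01) was computed over a full 3 Mb and is therefore slightly low. Next came 1.5 to 4.5 Mb of the same chromosome with 124 and 36 to 39 Mb of chromosome 1 with 120. The first 3 Mb of chromosome 5 held 119, and 30.5 to 33.5 Mb of chromosome 3 held 118. On all 12 chromosomes the sparsest window was centred at 25.4 to 63.7% of the length, and the densest one within 20% of an end. The fold between the densest and the sparsest window of a chromosome ran from 2.02 on chromosome 11 to 4.25 on chromosome 5, a chromosome whose own density was close to that of the whole. H3K9ac fell in the same windows, to 93 to 176 peaks in the 12 sparsest against 273 to 314 in the 12 densest. The windows were picked by their H3K27ac counts, so these contrasts are descriptions.

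The sides of a chromosome, split at the midpoint of its length, could differ. Beyond the midpoint of chromosome 4 lay 531 of its 798 H3K27ac peaks, or 66.5% (Wilson interval 63.2 to 69.7%), and beyond that of chromosome 9 lay 62.9% (58.7 to 66.9%). For chromosome 10 the share was 59.7% (55.4 to 63.9%). Chromosomes 1, 2, 5 and 7 leaned the same way, with 55.5 to 56.7% and intervals above 50%. On chromosomes 6 and 8 the shares were 51.8% and 52.9%, with intervals that included 50%. The opposite imbalance was smaller, with 45.4% beyond the midpoint on chromosome 12, 46.4% on chromosome 11 and 46.6% on chromosome 3. Of these last 3 intervals, those of chromosomes 12 and 3 lay below 50% and that of chromosome 11 reached 50.3%.

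The ends of the chromosomes stood apart. Within 0.5 Mb of an end there were 511 H3K27ac peaks, or 42.6 per Mb (39.0 to 46.4), which is 1.71 times the density over whole chromosomes. From 0.5 to 1 Mb there were 32.9 per Mb (29.8 to 36.3), from 1 to 2 Mb 31.0, from 2 to 5 Mb 29.0, from 5 to 10 Mb 23.7 and farther in 20.4 (19.7 to 21.2). The outer 500 kb held more peaks than the next 500 kb at 18 of the 24 ends and fewer at 6. Counts in the outer 500 kb had a lowest value of 8, at the start of chromosome 9, a median of 21 and a highest value of 33, at the start of chromosome 1. In the next 500 kb they ran from 9 through a median of 15.5 to 29, so the ranges overlapped widely. Peaks in the outer 500 kb had a median width of 1082 bp (1029 to 1121) against 970 bp (961 to 981) beyond 10 Mb.

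The full H3K9ac list did not step in this way, but its highest-scoring peaks did. The density of all H3K9ac peaks was 93.5 per Mb in the outer 0.5 Mb and 91.9 in the next 0.5 Mb, 1.31 times its density over whole chromosomes in the outer part, and it was higher in the outer part at 13 of the 24 ends. The 9309 highest-scoring H3K9ac peaks, as many as the H3K27ac list holds, had 40.1 per Mb in the outer 0.5 Mb and 31.9 in the next, higher at 19 ends, and those of H3K4ac had 41.0 and 32.2, higher at 20 ends. These steps of 1.26 and 1.27 times were close to the 1.29 times of H3K27ac. The share of H3K9ac peaks that overlapped an H3K27ac peak was 45.5% (42.6 to 48.4%) in the outer 0.5 Mb, 35.4% (32.7 to 38.3%) in the next and 31.8% beyond 10 Mb, and it was higher in the outer part at 20 of the 24 ends. These distances were chosen after the peaks had been seen along the chromosomes. H3K9ac peaks also scored higher there, with a median of 159 in the outer 0.5 Mb against 140 in the next and 132 overall. When H3K9ac peaks were split into 4 groups of equal size by score, the share with H3K27ac was higher in the outer 0.5 Mb than in the rest of the chromosomes in each group. In the lowest group it was 11.7% (8.19 to 16.5%) against 5.57% (5.04 to 6.16%), in the next 23.1% (18.2 to 29.0%) against 14.6% (13.8 to 15.5%), in the third 43.2% (37.7 to 48.8%) against 37.6% (36.4 to 38.8%), and in the highest 82.9% (78.7 to 86.4%) against 76.1% (75.1 to 77.2%). The intervals overlapped in the third group only. Of the 44 H3K27ac peaks shared by all marks, 10 lay within 0.5 Mb of an end, against 511 of all 9309 H3K27ac peaks. Without these 44 peaks, the share of H3K9ac peaks with H3K27ac was 44.5% in the outer 0.5 Mb against 35.4% in the next.

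At the scale of whole chromosomes the H3K27ac list followed H3K9ac. Over the 746 bins the rank correlation with the number of H3K9ac peaks was 0.766 and with H3K4ac 0.758, while with H3K27me3 it was 0.066 and with H3K9me1 0.088. With H3K9me3 it was -0.040, and this sign turned in smaller bins (0.023 at 250 kb) and for peaks of score 100 or more (0.127). Neighbouring bins are alike, so the bins are not independent. When the bins were ranked by H3K9ac and cut into 3 parts of equal number, 33.6% of the H3K9ac peaks in the sparsest part (32.3 to 34.8%), 32.8% in the middle and 34.4% in the densest part (33.6 to 35.3%) overlapped an H3K27ac peak. The difference of 0.886 percentage points between the densest and the sparsest part had an interval of -0.607 to 2.38. The H3K9ac peaks had median scores of 144, 133 and 128 from the sparsest to the densest part. The shares were not adjusted for this. By chromosome the share ran from 32.1% on chromosome 10 to 36.0% on chromosome 12. H3K27ac peaks were wider where H3K9ac was dense, with median widths of 935, 965 and 1047 bp from the sparsest to the densest part, and their median scores went the other way, 86.1, 84.3 and 82.3.

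Gaps between neighbouring H3K27ac peaks had a median of 23.7 kb (23.0 to 24.5), with the middle 50% between 10.1 and 50.7 kb, over 9297 gaps. The observed gaps were set beside even placement, the gaps that the same number of peaks would have on average if each could start anywhere in the uncovered length of its chromosome, computed from a formula. Even placement gives a median of 26.8 kb. Short gaps were fewer than that. Gaps of at most 2 kb made up 2.53% (2.23 to 2.87%) against 5.07%, and gaps of at most 5 kb made up 9.24% (8.67 to 9.85%) against 12.2%, a ratio of 0.757. Gaps of 0.5 to 1 kb were the scarcest class, 49 against 119 under even placement. The shortage lay below 3 kb, since gaps of 3 to 5 kb numbered 471 against 436. Gaps of 5 to 7.5 kb were the most enriched of the classes under 200 kb, 762 against 513, followed by 7.5 to 10 kb with 679 against 481. By 10 kb the shortage had been made up, with 24.7% observed and 22.9% under even placement. With peaks evenly placed within each bin, which keeps the density along the chromosome, the ratios were 0.692 at 5 kb and 0.998 at 10 kb.

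**Figure D3:**
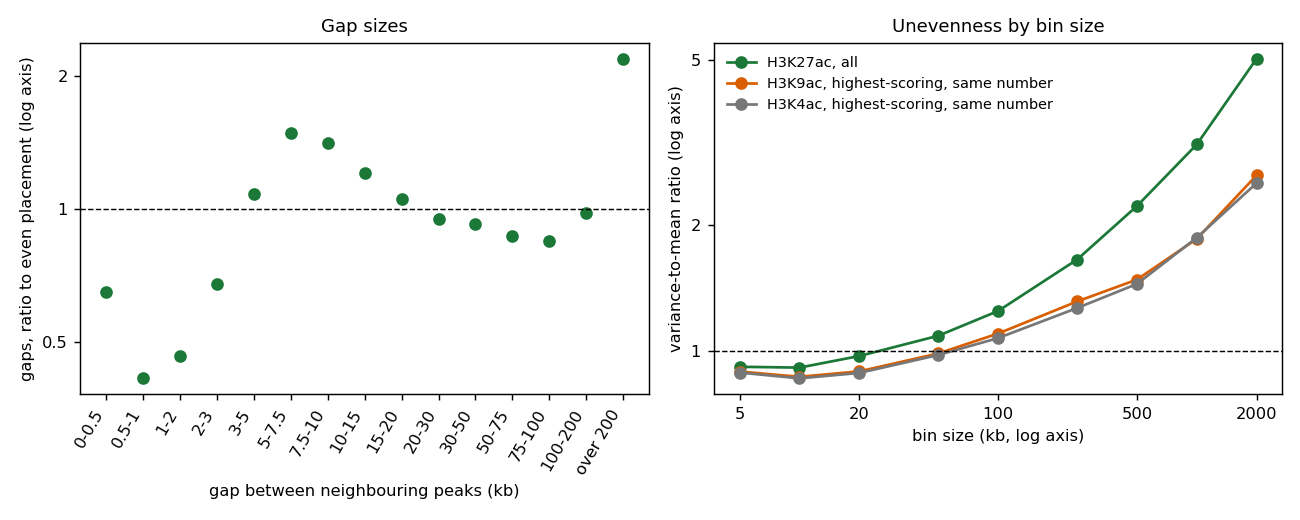
Left, number of gaps between neighbouring H3K27ac peaks in each size class (x axis, kb) divided by the number under even placement (y axis, log scale, 1 dashed). Right, variance-to-mean ratio of peak numbers per bin (y axis, log scale) by bin size in kb (x axis, log scale) for all H3K27ac peaks and for equally many of the highest-scoring H3K9ac and H3K4ac peaks. Gaps of 0.5 to 2 kb lie lowest, those over 200 kb highest, and the H3K27ac line rises most, to 5.03 in bins of 2 Mb.

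Groups of close peaks were small. With gaps of at most 5 kb joined, the list fell into 8450 groups, of which 7678 were single peaks, 700 were pairs and 72 had 3 or more. Only 2 groups had 5 peaks. The group at chr3:3727668-3750785 had peaks of 1273 to 2850 bp and scores of 56.3 to 160, covering 46.1% of its 23.1 kb. The group at chr6:1629562-1649377 had peaks of 872 to 1890 bp and scores of 74.4 to 153, covering 34.2% of its 19.8 kb. Every peak of both groups overlapped H3K9ac and H3K4ac peaks, and none overlapped a peak of the 3 methylation marks. A further 11 groups had 4 peaks each, of which the 3 with the highest-scoring single peak lay at chr1:33510407-33543770, chr6:24218224-24234898 and chr9:15439116-15456240. The 1631 peaks with a neighbour within 5 kb were wider than the 7678 others (median 1077 bp, 1051 to 1098, against 975 bp, 969 to 983) and had lower scores (median 77.3 against 85.0). Neighbouring peaks were nearly unrelated in score (rank correlation 0.022 over 9297 pairs) and weakly related in width (0.131).

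Of the closest neighbours, 78 pairs lay at most 500 bp apart, and the nearest were separated by 7 bp. The gap between them was spanned by a single H3K9ac peak in 26 pairs (33.3%, 23.9 to 44.4%) and by a single H3K4ac peak in 45 (57.7%, 46.6 to 68.0%). These peaks had a median score of 68.9, below the 83.7 of the whole list.

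At the other extreme, 131 gaps exceeded 200 kb, 1.41% against 0.642% under even placement, a ratio of 2.19. The equally long lists of highest-scoring H3K9ac and H3K4ac peaks also had an excess, 1.18% against 0.604% and 1.17% against 0.590%. For the 3286 peaks left by a minimum score of 100, the ratio at 200 kb was 1.01. Their median gap was 68.4 kb against 23.7 kb in the full list, so 200 kb is a less extreme length for them. The 2 ratios are therefore not like measures, and whether the excess holds for higher-scoring H3K27ac peaks was not tested. The longest gap of the full H3K27ac list ran for 628 kb on chromosome 2, at 14339171-14966695. The longest of chromosomes 8, 12, 7, 4 and 6 measured 505, 488, 481, 476 and 476 kb, and those of chromosomes 3 and 1 were short, 261 and 251 kb. These 12 gaps were picked for holding no H3K27ac peak, so H3K9ac and H3K4ac peaks that overlap H3K27ac mostly fall outside them by construction. Over all chromosomes, 33.8% of H3K9ac peaks overlapped H3K27ac. The 12 gaps, 5.11 Mb together, were not bare of other marks. H3K9ac had 21.9 peaks per Mb in them (18.1 to 26.4) against 71.5 over the chromosomes, H3K4ac 20.4 against 68.1, H3K27me3 14.3 against 34.7, H3K9me1 9.40 (6.93 to 12.5) against 13.4 and H3K9me3 4.89 (3.17 to 7.23) against 7.93. The gap of chromosome 6 at 18271490-18747028 held no H3K9ac, H3K4ac or H3K27me3 peak, whereas that of chromosome 1 held 22 H3K9ac peaks in 251 kb. Pooled over the 12 gaps, each of the 5 other lists was thinner than over the chromosomes, though not in every gap, as that of chromosome 1 had 87.8 H3K9ac peaks per Mb and that of chromosome 9 had 22.5 H3K9me1 peaks per Mb. How much of this length reads can be placed in was not tested. More than 100 kb of empty sequence lay on both sides of 129 isolated peaks, most often on chromosome 4 (18 of them). Isolated peaks were narrow, with a median of 888 bp (843 to 940), and 89.1% of them (82.6 to 93.4%) overlapped both H3K9ac and H3K4ac peaks. This share was 95.03% (93.9 to 96.0%) for the peaks with a close neighbour. It was 93.4% (92.8 to 93.9%) for all peaks without one, an interval that overlaps that of the isolated peaks.

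The width of most H3K27ac peaks was close to 1 kb. The median width was 989 bp (981 to 995), the middle 50% lay between 825 and 1254 bp, and 85.3% were 500 to 1500 bp wide. The range was 369 to 6702 bp, and 535 peaks exceeded 2 kb, 134 exceeded 3 kb and 13 exceeded 5 kb. The widest 10%, of at least 1700 bp, held 20.8% of the covered length. Width rose with the peak score (rank correlation 0.518 over 9309 peaks), from a median of 804 bp (790 to 821) in the lowest 10% by score to 1444.5 bp (1403 to 1489) in the highest. The peak caller's score and width come from the same reads.

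**Figure D4:**
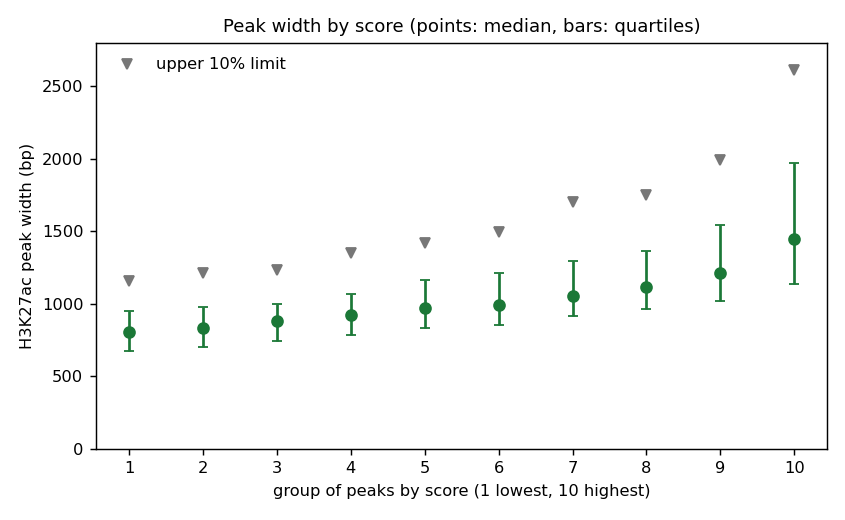
Width of H3K27ac peaks in bp (y axis) in 10 groups of equal size by score (x axis, 1 lowest). Points are medians, bars run from the lower to the upper quartile, and triangles mark the width that 10% of the group exceed. Medians rise in every step, from 804 to 1444.5 bp.

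The widest peak lay at chr3:31811160-31817861, with 6702 bp and a score of 235. The second, at chr5:12956839-12963067, was 6229 bp wide with a score of 122, and the third, at chr1:33510407-33516558, was 6152 bp wide with a score of 100. The next 7 were 5352 to 5809 bp wide, at chr9:10623709-10629517, chr1:33521463-33527261, chr8:22322307-22327868, chr2:14244765-14250216, chr1:33497657-33503078, chr6:26409763-26415149 and chr3:32653311-32658662. The widest peaks were not the highest-scoring ones, and that on chromosome 2 had a score of 55.9, near the minimum of 50 in the list. All 10 overlapped H3K9ac and H3K4ac peaks, 7 overlapped an H3K9me1 peak and 5 an H3K27me3 peak, and the one on chromosome 8 overlapped all 5 other marks. Over the 134 peaks wider than 3 kb, 24.6% (18.1 to 32.6%) overlapped H3K9me1 against 2.36% of all peaks, and 24.6% overlapped H3K27me3 against 8.21%. A wider peak has more length in which to meet another, and this was not adjusted for. Chromosome 1 carried 29 of the 134, which is 2.34% of its peaks against 1.44% of all peaks. Of these 29, 8 lay in a single stretch, described next.

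Of the 10 widest peaks, 3 sat side by side on chromosome 1. There, 11 consecutive H3K27ac peaks covered 44.5 kb, or 48.1%, of a stretch of 92.5 kb from 33497657 to 33590126, which lies almost whole in the bin with the largest covered length. This stretch was chosen after its values were seen. Its first 7 peaks were 3203 to 6152 bp wide. Each of these 7 overlapped an H3K9me1 peak and 6 overlapped an H3K27me3 peak. Their median score of 90.2 was close to the 83.7 of the whole list, and the exception was the peak at chr1:33531779-33534981, whose score of 505 ranked 7 in the whole list.

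**Figure D5:**
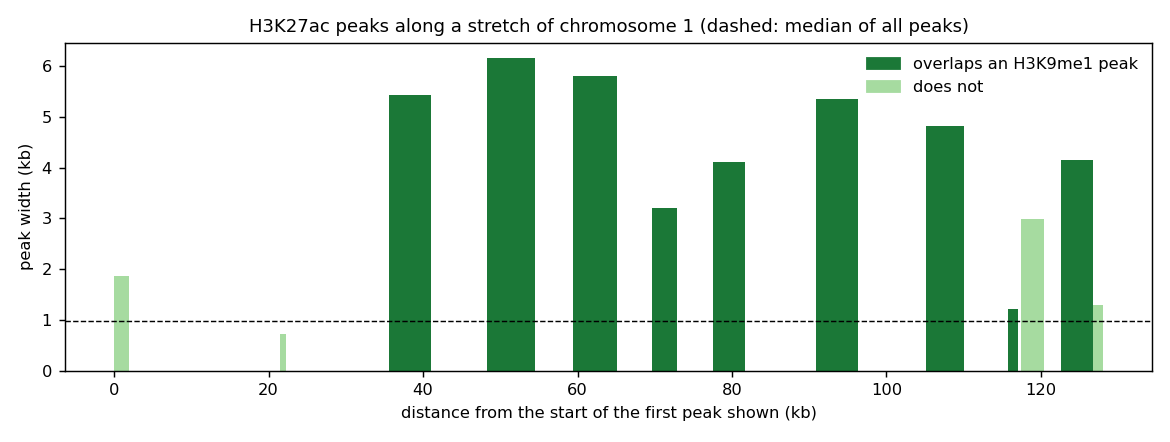
Width in kb (y axis and, to scale, bar width) of the H3K27ac peaks along a stretch of chromosome 1, by distance in kb from the start of the first peak shown (x axis). Dark bars overlap an H3K9me1 peak, light bars do not, and the dashed line is the median width of all 9309 peaks. From about 35 kb on, 8 of 11 peaks are wider than 3 kb.

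The highest scores belonged mostly to other places. The peak at chr2:28714934-28717135 had the top score, 1271, and was 2202 bp wide. It was followed by chr11:12307060-12309012 with 823, chr11:16200121-16202519 with 788, chr4:1007-2226 with 757, chr11:12277529-12282414 with 624 and chr3:19572359-19575476 with 613. The remaining 4 scored 479 to 505, at chr1:33531779-33534981, chr1:16910156-16914655, chr11:12301622-12304703 and chr6:55832-56902. Of these 10 peaks, 9 overlapped both an H3K27me3 and an H3K9me1 peak, marks that overlapped 8.21% and 2.36% of the whole list, and 4 overlapped all 5 other marks. A stretch of 57.1 kb on chromosome 11, from 12272038 to 12329156, held 3 of the 10 among 9 peaks, 5 of which overlapped all the other marks. How much of these scores is signal common to all libraries was not tested.

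Equally long lists were set beside H3K27ac by taking the 9309 highest-scoring H3K9ac and H3K4ac peaks, both of which had a median of 12 peaks per bin. H3K27ac was more unevenly spread than either, with a variance-to-mean ratio of 2.23 against 1.49 and 1.47 and a fold between chromosomes of 1.42 against 1.24 and 1.29. It also had more close neighbours than these lists, with 9.24% of gaps at most 5 kb against 6.18% and 6.68%. All were under their values for even placement of 12.2%, 12.1% and 12.2%, at ratios of 0.757, 0.510 and 0.546. The full H3K9ac and H3K4ac lists, with 26693 and 25425 peaks, had higher ratios to even placement than H3K27ac, 0.908 and 0.933. Their variance-to-mean ratios were 3.80 and 3.56. Since the ratio grows with the number of peaks per bin, its excess over 1 was divided by the mean count, which gave 0.0994 for H3K27ac, 0.0784 and 0.0752 for the full lists and 0.0392 and 0.0375 for the highest-scoring peaks. The first bins of the 12 chromosomes held 248 H3K27ac peaks and the bins after them 173, against 239 and 180 for the highest-scoring H3K9ac peaks and 541 and 512 for all H3K9ac peaks. Peaks chosen for their score and a list cut at the caller's threshold are not the same kind of sample, and no test of these differences was made.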

How the data were processed

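ChIP-seq of 6 histone marks was done on leaves of 2-week-old Nipponbare seedlings, with 1 library per mark. The authors deposited 1 peak list per mark, with positions and a score for each peak. The submitters' processing notes name Bowtie, and the lists name MACS 1.4. In that tool the deposited score is −log10 of a p-value multiplied by 10, and the lowest here was 50. The paper took gene pairs from the TIGR rice annotation, but the build of the peak lists themselves, the settings, the control and the read depth are not given in the sources used here, so positions are printed as deposited (counted from 1) and no gene was assigned.

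Chromosome lengths were taken as the end of the last peak in any list. Peaks were counted at their midpoints in bins of 500 kb, and a last piece under 250 kb was left out. Gaps ran from edge to edge, and peaks at most 5 kb apart formed groups. Even placement used the closed formula in which a gap exceeds x with probability (1 - x/F) to the power n, for n peaks and uncovered length F of a chromosome. Overlap meant at least 1 bp. Intervals are 95% Wilson for shares, exact Poisson for counts and order-statistic for medians, and that of a difference of shares is normal. Computations used Python 3.11.15, numpy 2.4.6, pandas 2.3.3 and scipy 1.17.1, and the formulas were tested on simulated data. Alternatives were a score of at least 100, merging of peaks under 200 bp apart, other bins, joining distances and overlaps, and, chosen after seeing the data, leaving out peaks shared by all marks.

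Places named are the 12 chromosomes, the 10 widest and 10 highest-scoring peaks, the longest gap of each chromosome, the 5 fullest bins, the 5 densest and sparsest windows and the 5 groups with most peaks, with ties ordered by the highest score in the group. The members and the lists were chosen with earlier results of these data known.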

Additional observations from a re-analysis of the deposited data

How the results depend on the processing

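The lists give no depth, and a minimum score of 100 left 3286 peaks, so it lowered numbers by construction: 4.58 Mb covered, a median of 4 peaks per bin, 2.41% of bins empty, a median gap of 68.4 kb, 2.57% of gaps at most 5 kb and 0 groups of 5 or more peaks (0% of peaks). The median width was then 1205.5 bp, the variance-to-mean ratio 1.36, the ratio to even placement 0.583 for gaps of at most 5 kb and 1.01 for gaps over 200 kb, and the rank correlation of width and score 0.301. Rank correlations per bin were then 0.566 with H3K9ac, 0.559 with H3K4ac and 0.127 with H3K9me3. The share of H3K9ac peaks with H3K27ac in dense minus sparse bins was -1.09 percentage points. Divided by the mean count, the excess of the variance-to-mean ratio over 1 changed little, from 0.0994 to 0.0820. Bins of 250 kb left 1.004% of bins empty, gave a correlation with H3K9me3 of 0.0234 and a dense minus sparse difference of 2.56 points. Between midpoints, the median distance was 24.8 kb, 5.49% were at most 5 kb and the ratio to even placement was 0.462. That ratio was 0.692 within bins, 0.498 for gaps of at most 2 kb and 1.08 for gaps of at most 10 kb. By size class, gaps under 3 kb fell short of even placement and those of 3 to 20 kb did not. Joining at 2 kb gave 0 groups of 5 or more (0% of peaks) and at 10 kb 37 (2.34%). The fold between chromosomes stayed between 1.34 and 1.62. The outer 500 kb had 1.71 times the whole density, 1.94 times at a score of 100 and 1.68 times without the 44 peaks shared by all marks. Merging close peaks and leaving out those 44 moved no value past its interval or by over 1.5 times. No paired analysis was possible because each mark had 1 library. The causes of these shifts were not tested, beyond the fewer peaks at the higher score.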
